A study of Acipenser transmontanus and Acipenser medirostris with 18 samples.

Results

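The genes described are the antigen presentation genes of the major histocompatibility complex (MHC) in white sturgeon (Acipenser transmontanus) and green sturgeon (Acipenser medirostris). They were chosen by protein name. A transcript was a member when its description contained beta-2-microglobulin, histocompatibility antigen, major histocompatibility complex, antigen peptide transporter or tapasin. The rule found 86 of 70537 transcripts, at 17 of 13249 loci. A locus is a group of overlapping transcripts numbered by the PacBio pipeline. No transcript matched antigen peptide transporter, so the peptide pump of the class I pathway was not analysed here. Of the 17 loci, 2 carried the name minor histocompatibility antigen H13-like. That protein is the intramembrane signal peptide peptidase and presents no peptide, so these 2 loci are given apart and the remaining 15 loci, with 61 transcripts, are called the MHC loci.

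Full-length cDNA of 18 libraries was sequenced by PacBio Iso-Seq, in which each read covers a whole transcript. Epithelial cultures from white sturgeon gave 5 libraries: rim of the mouth (WM, W12 and W8) and skin (WS1 and WS2). Epithelial cultures from green sturgeon gave 6 libraries: ampullae of Lorenzini (GA1 and AF), upper palate (IM and IF), rim of the mouth (MM) and esophagus (EM). IM, MM and EM were labelled male, IF and AF were labelled female, and GA1 had no sex label. White sturgeon tissues gave 6 libraries, 1 per site: barbel (WB2), ampullae (WA2), upper palate (WI1), rim of the mouth (WM2), esophagus (WE1) and dorsal skin (WDS1). A single green library, FAF, was labelled fibroblasts and adipocytes, female. W12 was labelled dodecaploid and all other libraries octoploid. The cultures were confluent outgrowths of explants kept in DMEM/F12 with FBS, Y27632, EGF, hydrocortisone, insulin, transferrin, adenine, amphotericin B and ciprofloxacin. Hydrocortisone is a glucocorticoid. According to the paper, white sturgeon explants were cultured before trypsinization and green ones after it, so this step differed with species. It also states that epithelial cells were first grown with a feeder layer. There was no green tissue library. Species and kind of library were therefore tested separately, except where green cultures are set against white tissues, which changes both at once.

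The libraries held 90002 to 129568 counts in white cultures, 124136 to 302286 in green cultures, 29797 to 204203 in tissues and 243012 in FAF. The labels do not give the fish behind each library, so p-values measure only the spread between these libraries. Sample numbers restart at 1 in the titles, which split the libraries into 3 sets. The white cultures and GA1 were in the first, the other green libraries in the second and the tissues in the third. Culture and tissue therefore cannot be told apart from set. Epithelial markers (keratins, desmosomal and envelope plakins) made up 3.98% to 10.3% of counts in white cultures, 1.06% to 9.66% in green cultures, 4.02% to 17.6% in tissues and 0.402% in FAF. Connective tissue markers (decorin, lumican, vimentin and type I collagen chains) made up 3.58% in FAF and at most 0.762% elsewhere. The closest pair of libraries was WS1 and WS2, whose counts still differed by more than sampling noise (chi-square per degree of freedom 2.52 over 2552 loci).

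MHC class I molecules carry peptides from inside the cell to the surface of nearly all nucleated cells, where T cells read them. Each holds a variable heavy chain and an invariant light chain, beta-2-microglobulin, and is loaded in the endoplasmic reticulum with peptides cut by the immunoproteasome. Class II molecules pair an alpha and a beta chain, travel with the invariant chain (CD74), and present peptides from endosomes on dendritic cells, macrophages and B cells. In mammals, interferon gamma raises both classes and can bring class II onto epithelial cells. The protein names in the table come from similarity to sterlet proteins and often carry the name of a mammalian allele family (H-2, BOLA, rano). Descriptions end at the first comma, so alpha and beta chains of class II could not be separated by name.

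Beta-2-microglobulin, the invariant chain and the class II chains were lower in every white culture than in every white tissue. The class I heavy chain, as counted by named transcripts, overlapped between these groups. For beta-2-microglobulin the green cultures lay between white cultures and tissues. The 15 MHC loci together made up 0.327% to 1.39% of counts in the tissues, 0.00889% to 0.0186% in white cultures and 0.0222% to 0.366% in green cultures. Class I with beta-2-microglobulin held 62 counts in all white cultures, 1684 in green cultures and 2867 in tissues. Class II with the invariant chain held 5, 25 and 1663. In bulk RNA, fewer cells of a type and less RNA per cell cannot be told apart.

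**Figure D1:**
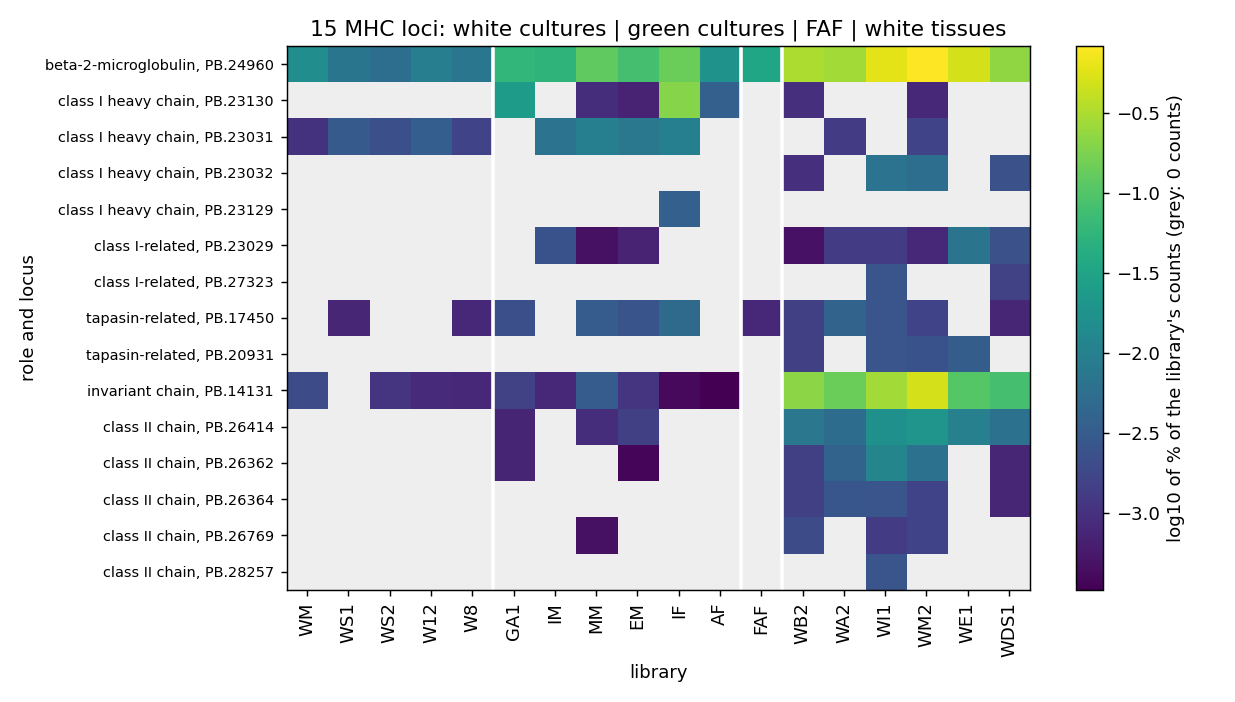
Share of each library's counts (colour, log10 of percent) at the 15 MHC loci, with libraries in columns (white cultures, green cultures, FAF and white tissues, separated by white lines) and grey for 0 counts. Beta-2-microglobulin was counted in all 18 libraries, whereas the 5 class II chain loci were grey in all white cultures and in FAF.

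Beta-2-microglobulin, the light chain of class I, was counted at a single locus, PB.24960. White cultures had 15 counts in WM, 9 in WS1, 5 in WS2, 11 in W12 and 9 in W8, or 0.00896% ± 0.00394 of counts (SD, n = 5). In the tissues the share ran from 0.228% in dorsal skin to 0.837% at the rim of the mouth, with a median of 0.414% and a mean of 0.464% ± 0.234 (SD, n = 6). Every tissue was above every culture of either species, and 11.3% of all features tested were likewise lower in every white culture than in every tissue. By edgeR's quasi-likelihood test the locus was 67.1-fold lower in white cultures (log2 fold change -6.07, SE 0.57, adjusted p = 1.72e-06). This contrast called 56.9% of all 1865 features tested, 29.3% lower in the cultures. The locus passed the filter on low counts through the tissues, since 2 of 5 white cultures reached its level, so a difference was favoured by its being tested. It was also called without the filter.

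Green cultures had more of this transcript than white cultures. The counts were 79 in GA1, 67 in IM, 268 in MM, 226 in EM, 352 in IF and 55 in AF, which gave shares from 0.0182% (AF) to 0.144% (IF), with a median of 0.0708% and a mean of 0.0803% ± 0.0468 (SD, n = 6). The lowest green culture, AF, was above the highest white culture, WM, at 0.0155%, as for 18.3% of features, but their 95% exact binomial intervals overlapped (0.0137% to 0.0237% and 0.00868% to 0.0256%). Such intervals cover counting error only. The locus was 8.24-fold higher in green cultures (edgeR, log2 fold change 3.04, SE 0.48, adjusted p = 8.02e-05), in a contrast that called 57.6% of 2125 features and 29.1% higher in green cultures. Within the first library set, the single green culture GA1 held 0.0590%, against 0.00556% to 0.0155% in the 5 white cultures. Connective tissue markers made up 0.762% of GA1, against 0.0330% to 0.0864% in the other green cultures and at most 0.204% in white ones. How this bears on beta-2-microglobulin in GA1 was not tested. With library set as a covariate the log2 fold change was 2.64 (edgeR, adjusted p = 0.014). The filter was passed through the green cultures here, and the locus was also called without it.

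Green cultures from the same site differed. AF and GA1, both from ampullae, held 0.0182% and 0.0590%, and IM and IF, both from upper palate, held 0.0540% and 0.144%. Against the white tissue of the same site, beta-2-microglobulin in ampullae was 4.75 times higher in tissue than in GA1 and 15.4 times higher than in AF. For upper palate it was 11.3 times higher than in IM and 4.26 times higher than in IF. It was 6.73 times higher for the rim of the mouth (MM) and 6.18 times for esophagus (EM). For white cultures these ratios were 54.0, 87.4 and 116 at the rim of the mouth and 32.8 and 41.1 in skin. Each ratio sets 1 culture against 1 tissue library and has no replicate check, and the green ratios also cross species.

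FAF held 84 counts of beta-2-microglobulin, 0.0346% of its total, which lay within the range of the green epithelial cultures. It held 0 counts of class I heavy chain, of the invariant chain and of class II chains. For heavy chain, 0 of 243012 counts allows a share of up to 0.00123%.

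The invariant chain, the chaperone that occupies the class II groove until the endosome, was counted at 1 locus, PB.14131, named HLA class II histocompatibility antigen gamma chain-like, with 26 transcripts. In white cultures it had 2 counts in WM, 0 in WS1 and 1 each in WS2, W12 and W8, a share of 0.000970% ± 0.000742 (SD, n = 5). In green cultures it had 2 in GA1, 1 in IM, 7 in MM, 3 in EM, 1 in IF and 1 in AF, a share of 0.00123% ± 0.00108 (SD, n = 6). In tissues it had 441 in barbel, 110 in ampullae, 222 in upper palate, 639 at the rim of the mouth, 32 in esophagus and 108 in dorsal skin, a share of 0.225% ± 0.158 (SD, n = 6). The lowest tissue, at 0.0841%, was above every culture.

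The locus was 277-fold lower in white cultures than in tissues (edgeR, log2 fold change -8.12, SE 0.74, adjusted p = 1.72e-06). It passed the filter on low counts through the tissues alone, so a difference was built into its being tested. It was also called without the filter. Between green and white cultures it was too low for the filtered test, and the shares overlapped. Without the filter the log2 fold change was 0.54 (SE 0.91, adjusted p = 0.663), and the ratio of the summed counts was 1.29 with a counting interval of 0.468 to 3.54. A species difference of that size was not detectable at this depth.

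**Figure D2:**
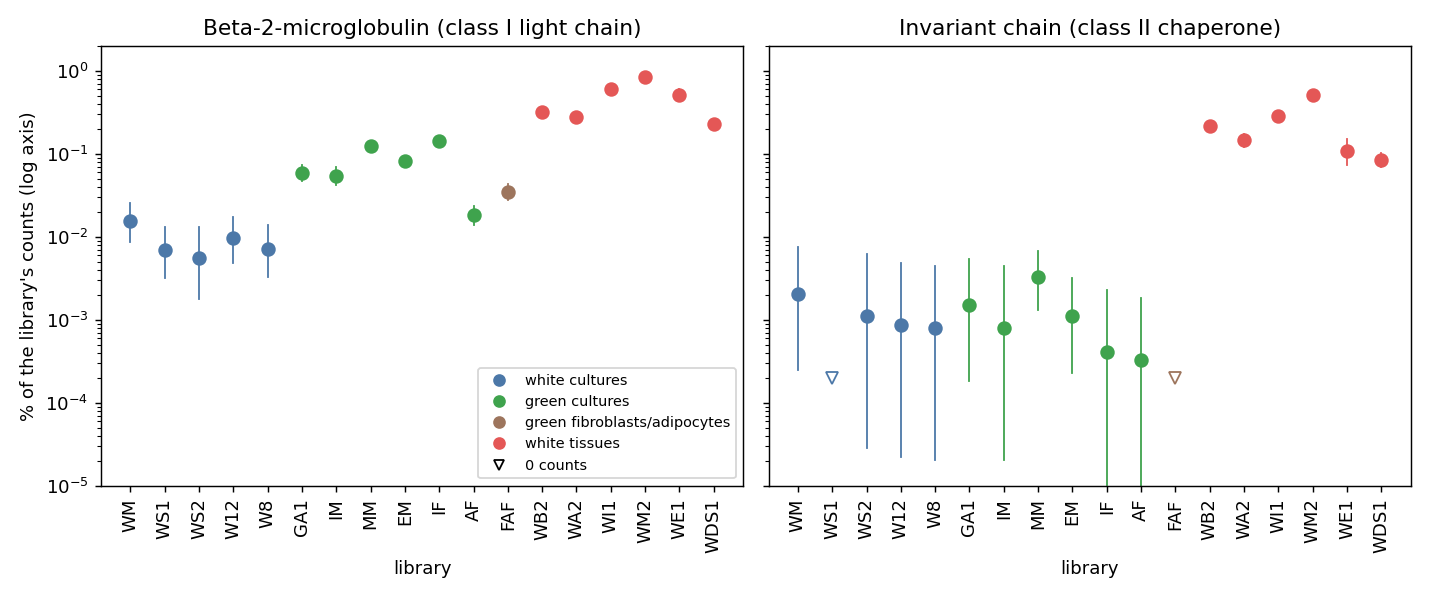
Percent of each library's counts (log axis) from beta-2-microglobulin on the left and from the invariant chain on the right, by library; lines are 95% exact binomial intervals and open triangles mark 0 counts at an arbitrary height. For beta-2-microglobulin the green cultures lay between white cultures and tissues, whereas for the invariant chain cultures of both species lay together, all below the lowest tissue at 0.0841%.

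The balance of the classes was compared within each library as the log2 ratio of invariant chain to beta-2-microglobulin counts (0.5 added to each). Where the invariant chain has 0 to 2 counts, as in white cultures, the added 0.5 and the beta-2-microglobulin count largely set the value. The mean was -1.16 ± 0.61 (SD, n = 6) in tissues, -2.87 ± 0.87 (SD, n = 5) in white cultures and -5.79 ± 1.08 (SD, n = 6) in green cultures. In tissues there were 21.1 (esophagus) to 68.0 (barbel) invariant chain counts for each 100 of beta-2-microglobulin. In green cultures there were 0.284 to 2.61. Green cultures did not overlap the tissues, while the highest white culture (WS2) exceeded the esophagus tissue.

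White cultures differed from tissues by -1.71 on the log2 scale (two-sided exact permutation test, p = 0.00649 for 5 against 6 libraries, and 0.00649 after Benjamini-Hochberg adjustment over 3 comparisons). The white culture ratio rests on 5 invariant chain counts in all, and with 1 added to each count the difference was -1.29 (exact permutation p = 0.00866). Green cultures differed from tissues by -4.63 (exact permutation p = 0.00216, the smallest p this design allows, adjusted 0.00325). Species, kind of library and library set all change in this comparison and cannot be told apart. Green cultures differed from white cultures by -2.92. That comparison was counted in the adjustment over 3 comparisons, but no test is given for it. With 0 invariant chain counts the lowest value a white culture could take was -4.95 (WM), and the highest green value was -4.99 (GA1), so the gap between these groups follows from the beta-2-microglobulin counts and the added 0.5.

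**Figure D3:**
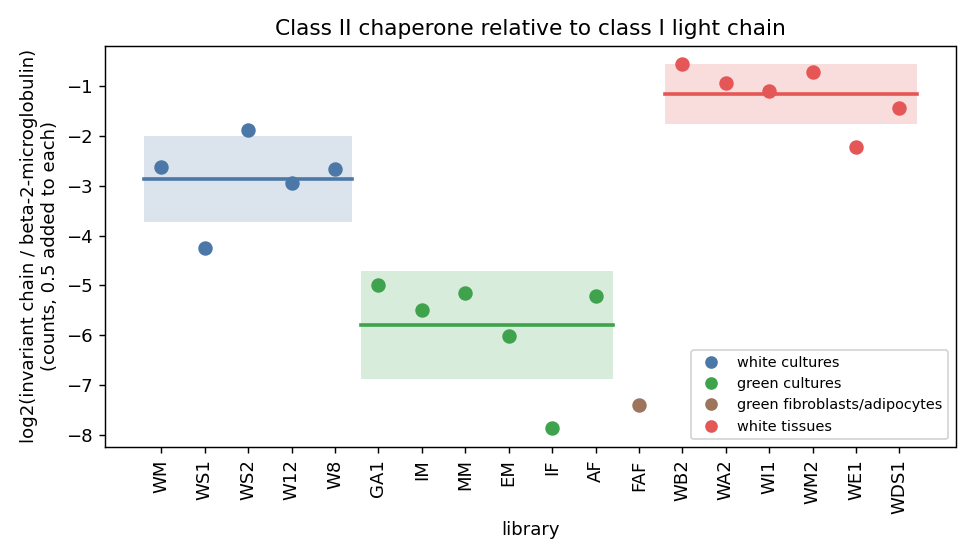
Log2 ratio of invariant chain to beta-2-microglobulin counts (0.5 added to each) in each library; lines and bands are group means ± SD. The tissues centred on -1.16, the white cultures on -2.87 and the green cultures on -5.79, with IF lowest.

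The class II chains themselves, which form the peptide groove, were counted at 5 loci. They had 0 counts in all 5 white cultures, which for single libraries allows shares of up to 0.00232% to 0.00333%. The green cultures held 10 counts, 2 in GA1, 3 in MM and 5 in EM. The tissues held 111, with 25 in barbel, 9 in ampullae, 27 in upper palate, 37 at the rim of the mouth, 3 in esophagus and 10 in dorsal skin. With 3 counts over the group as the floor, the summed share was at least 32.1-fold higher in tissues than in white cultures. It was 22.4 times higher than in green cultures, with a counting interval of 11.7 to 42.8.

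PB.26414, named rano class II histocompatibility antigen, held most of these reads, with 68 counts in tissues and 7 in green cultures (1 in GA1, 2 in MM and 4 in EM). Its tissue counts were present at all 6 sites and its share averaged 0.0109%. PB.26362, an H-2 class II chain, held 24 counts in tissues and 2 in green cultures. It was absent from the esophagus library, the shallowest. PB.26364, PB.26769 and PB.28257 held 10, 7 and 2 tissue counts, and 1 count of PB.26769 in MM was the only one outside the tissues. None of the 5 loci passed the filter on low counts. In the fit without a filter, which called 12.3% of 11938 features lower in white cultures, 4 of the 5 were called lower. PB.26769 kept that call in 3 of 11 fits that each left out 1 library (adjusted p up to 0.126 by edgeR), and the other 3 kept it in all 11.

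The class I heavy chain, which binds the peptide, had another order of groups than its light chain. Its 4 loci held 13 counts in white cultures, 631 in green cultures and 23 in tissues. The mean share was 0.00229% ± 0.00101 (SD, n = 5) in white cultures and 0.00334% ± 0.00314 (SD, n = 6) in tissues, and these groups overlapped. For each 100 counts of beta-2-microglobulin there were 6.67 to 44.4 heavy chain counts in white cultures, 8.58 to 151 in green cultures and 0 to 1.05 in tissues. The tissue values are counts of named transcripts, and unnamed transcripts at PB.23130 alone held 28 tissue counts against 3 named ones. These unnamed transcripts held 0 counts in white cultures, so the overlap of white cultures and tissues is also one of named transcripts.

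A single library held most heavy chain reads. The palate culture IF had 533 of the 631 green counts, 0.217% of its total. The other 5 green cultures had 8 to 33 counts and shares of 0.00364% to 0.0246%. IF was the only library in which heavy chain exceeded beta-2-microglobulin. The green mean was 0.0452% ± 0.0847 (SD, n = 6), and 0.0108% without IF. IM, from the same site in a male fish, had 8 counts.

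The heavy chain loci were used differently by library. PB.23130, named H-2 class I, had 500 counts in IF, 33 in GA1, 11 in AF, 2 each in MM, EM and barbel and 1 in mouth rim tissue. Its named transcripts had 0 in IM, in all white cultures and in the other 4 tissues. Unnamed transcripts at PB.23130 had counts in those tissues: 4 in ampullae, 5 in upper palate, 2 in esophagus and 3 in dorsal skin. Of the green counts at this locus, 98.0% were 1 transcript, PB.23130.32. PB.23031, named BOLA class I, was the only heavy chain locus counted in white cultures, with 1 in WM, 4 in WS1, 2 in WS2, 4 in W12 and 2 in W8. It had 8 counts in IM, 21 in MM, 21 in EM and 24 in IF, but 0 in both ampullae cultures, and 3 in tissues. PB.23032, also named BOLA class I, was counted in tissues alone, with 17 counts (2 in barbel, 5 in upper palate, 7 at the rim of the mouth and 3 in dorsal skin). PB.23129 was counted in IF alone, with 9. Near-identical heavy chain copies could share reads, so the split between loci is uncertain.

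No heavy chain locus passed the filter in either contrast. Without it, PB.23032 was called lower in white cultures than in tissues (edgeR, adjusted p = 0.00164), and PB.23031 was not called (log2 fold change 1.86, SE 0.97, adjusted p = 0.149). Between species, PB.23130 was called higher in green cultures, in a fit that called 14.6% of 12151 features higher, although IM and the white cultures shared a count of 0. Its log2 fold change without IF was 6.20 (edgeR, adjusted p = 2.09e-06). PB.23031 missed the threshold (log2 fold change 1.43, SE 0.60, adjusted p = 0.0524).

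Class I-related transcripts, named for the non-classical heavy chain family, were counted at PB.23029 and PB.27323. They held 0 counts in white cultures, 6 in green cultures (3 in IM, 1 in MM and 2 in EM) and 13 in tissues, where every library had 1 to 5. PB.23029 was called lower in white cultures without the filter (edgeR, adjusted p = 0.0156), and PB.27323, with 4 counts in all, was not.

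Tapasin bridges the empty heavy chain to the peptide transporter, and its relative TAPBPR edits bound peptides. Both loci found were named tapasin-related protein-like. PB.17450 had 1 count in WS1, 1 in W8, 3 in GA1, 7 in MM, 7 in EM, 12 in IF and 2 in FAF, and 11 counts over the tissues. It was called higher in green than in white cultures without the filter (edgeR, log2 fold change 2.56, SE 0.98, adjusted p = 0.0328), but the groups overlapped, since IM and AF had 0, and 6 of 11 fits with 1 library left out lost the call (WM, WS2, W12, MM, EM or IF). PB.20931 had 9 counts, all in tissues, and was called lower in white cultures without the filter (edgeR, adjusted p = 0.0178).

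Counted over all 17 loci, 2 passed the filter between white cultures and tissues and both were lower in the cultures. Without the filter 9 were called lower and 1 higher, and 6 others were not called, where 12.3% of all features were lower and 10.3% higher. The 1 called higher was an H13 locus, PB.21509. It held 40 counts in white cultures, 73 in green cultures, 23 in FAF and 3 in tissues, a log2 fold change of 3.45 between white cultures and tissues (edgeR, SE 0.80, adjusted p = 0.000289). The other H13 locus, PB.19740, held 30, 10, 6 and 54 counts. Too low for the filtered test, it was called lower in green than in white cultures without the filter (edgeR, log2 fold change -2.43, SE 0.70, adjusted p = 0.00314). That fit called 14.6% of 12151 features lower in green cultures.

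The leading transcript at a locus was not the same in every group. At PB.24960 transcript PB.24960.43 made up 53.1% of counts in white cultures (95% exact interval 38.3% to 67.5%), 89.1% in green cultures (87.1% to 90.9%) and 97.6% in FAF. In tissues PB.24960.50 led with 57.2% (55.3% to 59.0%), and PB.24960.43 held 1181 of 2831 counts. White cultures had 26 and 22 of 49 counts of PB.24960.43 and PB.24960.50. Whether white cultures and tissues differed in this was not tested. At PB.14131 all 26 transcripts were counted in tissues, where PB.14131.1 held 45.1%. The same transcript held all 5 counts in white cultures, whereas PB.14131.16 held 12 of 15 in green cultures.

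Genes that feed the class I pathway showed a similar order of groups for the immunoproteasome and interferon-linked members. A list of 23 such loci had 5 tested between white cultures and tissues: 2 were lower in the cultures, 1 was higher and 2 did not pass, with a median log2 fold change of -0.64 against -0.04 over all features, of which 29.3% were lower and 27.6% higher. PB.23127, PSMB8, a catalytic subunit of the immunoproteasome, was 20.3-fold lower in white cultures (edgeR, adjusted p = 1.58e-05), with 5 counts in white cultures and 102 in tissues. It passed the filter through the tissues alone, so a difference was built into its being tested. PB.1545, an ERAP2-like peptidase that trims peptides, was 2.47-fold higher in white cultures (edgeR, adjusted p = 0.0229). It passed the filter through the white cultures, so a difference was favoured by its being tested. Its call was lost without WM, WA2 or WI1. Leaving out any of 5 tissues took PSMB8 below the filter, and without the filter it kept its call in all 11 such fits.

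The next loci were chosen after their values were seen, because they were too low for the filtered test. PSMB9, the partner subunit of PSMB8, had 0 counts in white cultures at both of its loci. In green cultures PB.23128 had 14 counts and PB.28483 had 19, and in tissues they had 31 and 65. PB.21984, IRF1, an interferon-induced activator of class I genes, had 1 count in white cultures, 53 in green cultures and 128 in tissues. All 3 loci were called lower in white cultures than in tissues, and higher in green than in white cultures, without the filter (edgeR, adjusted p up to 0.0235), although PB.23128 lost the call between species without EM. In these fits 12.3% of all features were lower in white cultures than in tissues and 14.6% higher in green than in white cultures. The numbers PB.23127 to PB.23130 run consecutively through PSMB8, PSMB9 and a pair of class I heavy chain loci, with no positions analysed here.

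Among green cultures, MM, EM and IF, which had the highest beta-2-microglobulin, also had 25 to 33 counts of PSMB8 and 12 to 20 of IRF1. GA1 had 1 and 2, and AF had 0 of both. IM had 11 and 3, but its PSMB8 share of 0.00886% was near the 0.00986% of EM, a deeper library. Its beta-2-microglobulin share was below that of GA1 (0.0540% against 0.0590%), while GA1 held 0.000747% PSMB8. Between green and white cultures 4 loci of the class I list were tested. PB.21179, a PDIA3-like member of the loading complex, rose 3.71-fold (edgeR, adjusted p = 0.000105), and passed the filter through the green cultures. PB.11373, calreticulin-like, another loading chaperone, was 36.0-fold lower (edgeR, adjusted p = 1.80e-06), and passed the filter through the white cultures alone.

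Genes that prepare peptides for class II were called in both directions. Of 14 such loci 8 were tested between white cultures and tissues: 2 were lower, 1 was higher and 5 did not pass, with a median log2 fold change of 0.18 against -0.04 over all features. The shares called over all features were 29.3% and 27.6%. PB.22119, legumain, an endosomal asparaginyl peptidase, was 28.7-fold lower in white cultures (edgeR, adjusted p = 4.48e-06), and passed the filter through the tissues alone. PB.24312, GILT, a lysosomal thiol reductase induced by interferon gamma in mammals, was 2.70-fold lower (edgeR, adjusted p = 0.00865). PB.20413, cathepsin D-like, was 2.04-fold higher (edgeR, adjusted p = 0.045), and passed the filter through the white cultures. Of 11 fits with 1 library left out, 8 lost that call (WM, WS1, WS2, W12, WB2, WA2, WI1 or WE1).

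Between green and white cultures 7 class II pathway loci were tested: 4 were higher in green cultures, 1 was lower and 2 did not pass, with a median log2 fold change of 1.26 against 0.14 over all features, of which 29.1% were higher and 28.4% lower. These were cathepsins, general lysosomal proteases. PB.1600, cathepsin L1-like, rose 7.98-fold (edgeR, adjusted p = 0.00041) and passed the filter through the green cultures. PB.19175, cathepsin D-like, rose 4.01-fold (edgeR, adjusted p = 0.000724). PB.5308, cathepsin B-like, was 20.8-fold lower (edgeR, adjusted p = 2.27e-06) and passed the filter through the white cultures alone. PB.6415, also cathepsin B-like, was 2.68-fold higher (edgeR, adjusted p = 0.0494) and passed the filter through the green cultures. Its call was lost in 7 of 11 fits with 1 library left out (WS1, WS2, W12, W8, MM, EM or IF). The 2 cathepsin B-like loci thus went in opposite directions. PB.5308 held 426 counts in white and 52 in green cultures, and PB.6415 held 200 and 1406. No test of their sum is given here, so a species difference in cathepsin B as a whole is not shown. For PB.1600, PB.5308 and PB.6415 a difference was thus favoured by their being tested. GILT did not pass this test.

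**Figure D4:**
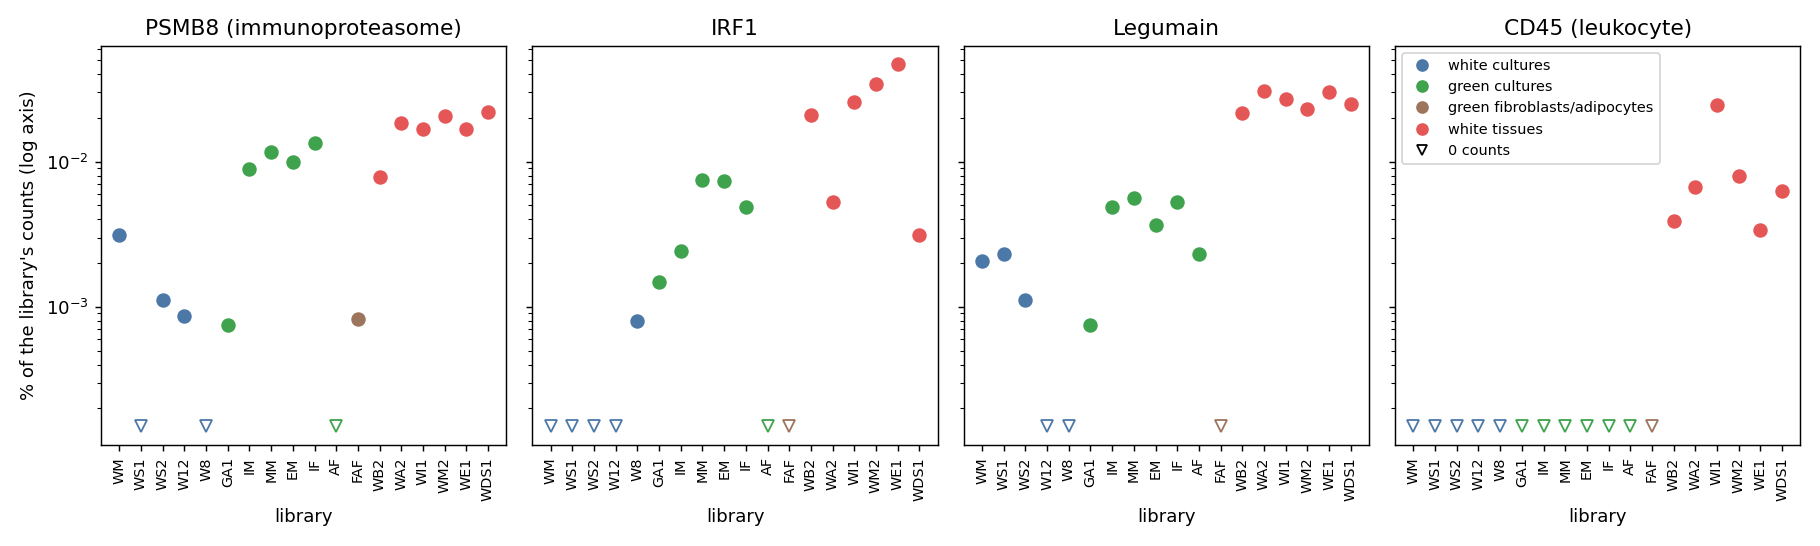
Percent of each library's counts (log axis) from PSMB8, IRF1, legumain and CD45, by library; open triangles mark 0 counts at an arbitrary height. CD45 was counted in the 6 tissues and in no culture, whereas PSMB8 and IRF1 were counted in 5 of 6 green cultures.

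The summed shares of the leukocyte and T cell markers were higher in every tissue than in every epithelial culture. For the T cell markers this rests on 1 count in the esophagus tissue, against 3 in the deeper library WS2. Of all single features tested, 11.3% were lower in every white culture than in every tissue. The other immune lists overlapped between tissues and white cultures. PB.10147, CD45-like, the phosphatase carried by all leukocytes, had 8 counts in barbel, 5 in ampullae, 19 in upper palate, 10 at the rim of the mouth, 1 in esophagus and 8 in dorsal skin, and 0 in all 11 epithelial cultures and FAF. The 4 general leukocyte loci together held 0% to 0.000802% of counts in white cultures, 0% to 0.00224% in green cultures and 0.00441% to 0.0245% in tissues. FAF held 0.0107%, all plastin-2-like. CD45 held 51 of the 55 tissue counts of this list, and not every other member followed it. Plastin-2-like had 0 counts in white cultures, 4 in green cultures and 1 in tissues. Hematopoietic cell signal transducer had 1 in each of these groups. Lymphocyte cytosolic protein 2-like had 2, both in esophagus tissue. T cell kinases (LCK and ZAP-70) held 0% to 0.00333% in white cultures, 0% to 0.00149% in green cultures and 0.00336% to 0.0245% in tissues, with LCK at 0 in every culture.

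Of 5 macrophage and dendritic cell loci, the 1 tested, PB.18514, CLEC4E-like, was 9.91-fold lower in white cultures than in tissues (edgeR, adjusted p = 0.00247), having passed the filter through the tissues. It was not confined to tissues, with 30 counts in white cultures, 86 in green cultures, 203 in tissues and 81 in FAF. WS1 held 16 of these, against 18 in the deeper barbel tissue library. In FAF the whole list held 0.0358%. The untested loci did not share this order. TYROBP-like had 0 counts in white cultures, 7 in green cultures and 3 in tissues. For CD83-like these counts were 2, 0 and 0, and for M130-like 1, 1 and 0. CD209-like was counted in FAF alone, with 6. This list held 0% to 0.0139% of counts in white cultures, 0% to 0.0254% in green cultures and 0.00930% to 0.104% in tissues. The 5 neutrophil loci held 0.00522% to 0.0168%, 0.000992% to 0.00821% and 0.0142% to 0.0235%. Among them PB.19843, MMP9-like, went the other way, with 8 counts in WS1, 10 in WS2 and 0 in tissues. No locus matched the B cell list. The part of these cells in the MHC values was not tested.

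The order of the tissues differed between markers and MHC genes. The rim of the mouth had the highest share of both beta-2-microglobulin (0.837%) and invariant chain (0.509%), followed by upper palate (0.612% and 0.286%), while CD45 was highest in upper palate (0.0245%) and next at the rim of the mouth. Dorsal skin had the lowest share of both MHC genes. Beta-2-microglobulin in esophagus (0.510%) was below upper palate and above the other 3 sites, but its invariant chain (0.107%) was above dorsal skin only. With 1 library per site these orders have no replicate check.

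Likeness to the MHC pattern within groups was measured as Pearson's r of log2 CPM (counts scaled to a common library total, 0.5 added) after subtraction of group means, over 17 libraries and 3172 loci. Beta-2-microglobulin was most like PB.7429, cholinephosphotransferase 1-like (0.926), PB.2821, CHMP5 (0.915), PB.6138, chitin synthase chs-2-like (0.891), PB.9926, JAK1-like (0.859), and PB.16685, CYP1A1 (0.851). The invariant chain was most like PB.14725, Meis2 (0.698), PB.18429, LC3B (0.676), PB.17718, ATG7 (0.676), PB.2656, GALNT11-like (0.672), and PB.35, MEGF9 (0.667). Between beta-2-microglobulin and the invariant chain r was 0.557, and 0.773 within the 6 tissues. These values describe libraries that also share depth and set, and the invariant chain had at most 7 counts in any culture.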

How the data were processed

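RNA of 18 sturgeon libraries was measured by PacBio Iso-Seq. The values are whole-number counts of full-length reads per transcript, as deposited by the authors, who processed reads with IsoSeq3, aligned them to the sterlet genome ASM1064508v1, filtered transcripts with Sqanti3 and named them by blastp against sterlet proteins. Libraries were amplified by PCR without molecular identifiers. Counts of member transcripts were summed per PacBio locus and given as percent of the library total, and other transcripts at a locus formed a separate feature. Transcripts without a protein name, 1.59% to 34.8% of a library's counts, stayed in totals and were not assigned to a gene.

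White cultures were compared with white tissues, and green with white cultures, by edgeR 4.0.16 (quasi-likelihood test, TMM, filterByExpr, Benjamini-Hochberg over all features, adjusted p under 0.05) in R 4.3.3. Log2 ratios of 2 counts (0.5 added) were compared by exact permutation tests in scipy 1.17.1. Upper limits for 0 counts used 3 counts, and intervals are exact binomial at 95%. On simulated data with 200 loci changed 4-fold, edgeR recovered 88.5% in both comparisons. Of its calls, 2.21% (cultures against tissues, 1865 features) and 3.28% (species, 2125 features) were false. The simulated loci had the levels of loci that passed the filter and a fixed dispersion of 0.2. These rates therefore do not cover calls made without the filter.

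Groups came from the labels. Members and gene lists were chosen with earlier results of these data known. Values in every library are given for the locus with most counts of each role and for loci with at least 10% of its counts. Of each list the locus with most counts and up to 4 with the lowest adjusted p were eligible to be named, and likeness names the 5 loci with the highest r among those with at least 100 counts. Alternatives were DESeq2 1.42.0, other filters, no TMM, a replicate block, library set, whole loci, protein names, a 3-group fit, sites in common and each library left out. The result of 1 locus of the class I pathway list is not reported here.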

Additional observations from a re-analysis of the deposited data

Results flagged for a closer look

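Class I heavy chain in the green palate culture IF, at 0.217% of counts, stood far from the other 5 green cultures (0.00364% to 0.0246%). Class I-related transcripts in the green palate culture IM, at 0.00242%, also stood apart from the rest of their group, but on 3 counts. These were 2 of 19 groups examined for a distant library, where chance gives about 1 in 20.

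Beta-2-microglobulin was counted in the fibroblast and adipocyte library FAF, outside both comparisons, at 0.0346% of counts, above all 5 white epithelial cultures. Transcripts without a protein name added 498 counts at the beta-2-microglobulin locus PB.24960, of which 445 were in tissues, 51 in green cultures and 0 in white cultures. At the invariant chain locus PB.14131 they added 218 counts, all in tissues.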

How the results depend on the processing

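Of 279 values recomputed for 22 results, 273 were counted as the same. Test results had to keep their direction and side of the threshold, and counts of calls to stay within 1.5 times. Mean shares had to stay within the SD of their group, a wide limit for some. The green heavy chain mean of 0.0452% (SD 0.0847) thus counted as the same at 0.0108% without IF. The class II chain share in white cultures was 0 throughout and could not move. The other 6 were counts over all features. Without the filter on low counts, 1229 features were higher and 1465 lower in white cultures than in tissues (515 and 547 with it), and 1771 were higher and 1776 lower in green than in white cultures (619 and 604 with it), among 11938 and 12151 features. With library set as a covariate, 239 were higher and 225 lower in green cultures; GA1 is then the only green library in the set of the white cultures. Leaving out each library gave 416 to 525 higher and 415 to 552 lower between kinds, and 510 to 684 and 538 to 658 between species.

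Between white cultures and tissues the log2 fold change ranged from -8.46 to -7.77 for the invariant chain and from -6.19 to -5.68 for beta-2-microglobulin over the other settings, and from -8.43 to -7.69 and -6.36 to -5.86 with single libraries left out. Without TMM the median over all features moved from -0.04 to 0.27 and the calls to 601 higher and 407 lower, and with DESeq2 to 0.20, with 632 and 484. Between species the median was 0.14, and 0.24 without TMM. The ratio of invariant chain to beta-2-microglobulin differed by -1.96 to -1.36 between white cultures and tissues when single libraries were left out. With every transcript at the 2 loci counted, an alternative chosen after seeing the data, the difference was -2.04. At PB.24960 in white cultures, this added 6 counts named complement factor B-like and 5 named interferon-induced very large GTPase 1-like. Unnamed transcripts added 0 there.

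Sample numbers did not pair the libraries: deviations from group means of same-numbered libraries correlated at -0.189 to 0.0463 between kinds and -0.0971 to 0.078 between species over 3377 loci. With the replicate block, 451 features were higher and 452 lower between kinds and 596 and 622 between species, and the log2 fold changes were -8.23 for the invariant chain, -6.19 for beta-2-microglobulin and, between species, 2.91 for beta-2-microglobulin.

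Depth limits the low loci: 1 count was 0.00033% to 0.0034% of a library, and 15 of 17 loci were too low for the filtered test between kinds and 16 of 17 between species.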
